A study of Mus musculus with 107 samples.

Results

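The 47 genes described here encode proteins of mitosis, of the G1/S transition and of DNA replication, and each of them was found by its gene symbol among the 50686 genes of the table. They were ordered by role. The 27 mitosis genes are 8 mitotic kinases and cyclins, 5 genes of the spindle checkpoint and the anaphase-promoting complex (APC/C), 4 of the centromere and the chromosomal passenger complex, 8 spindle motors and microtubule proteins, and the chromosome proteins Mki67 and Top2a. The other 20 are 6 transcription factors and G1/S cyclins, 10 genes of origin licensing and the replication fork, and 4 of nucleotide synthesis. RNA-seq was performed on 107 subcutaneous tumors from 12 mouse syngeneic models. In each model, tumors were collected at 3 points: treatment-naïve at about 100 mm3 (Base, 35 tumors), untreated on day 8 (NT, 36 tumors), and on day 8 after 7 days of oral lenvatinib (LEN, 36 tumors), an inhibitor of VEGF receptors and other receptor tyrosine kinases, at 10 mg/kg once daily. Every group held 3 tumors except MC38 Base, which held 2.

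BALB/cAnNCrlCrlj mice carried 4T1 and EMT6 (breast cancer), CT26.WT (colorectal), RAG and Renca (renal) and BNL 1ME A.7R.1 (hepatocellular, BNL below). C57BL/6NCrl mice carried B16-F10 (melanoma) and MC38 (colorectal), C57BL/6JCrl mice LL/2 (lung), DBA/2NCrl mice KLN205 (lung), C3H/HeNCrl mice MBT2 (bladder), and C57L/J mice Hepa 1-6 (hepatocellular). Mice were 7 weeks old at implantation, male for the hepatocellular models and female for the others, and RAG cells had been adapted in vivo. Each model is 1 transplanted cell line, so results describe these lines rather than a tumor type. Summed melanocyte markers reached 8065 to 9414 TPM in B16-F10, hepatocyte markers 2860 to 4132 TPM in Hepa 1-6, and skin epithelium markers 724 to 2013 TPM in KLN205. In BNL, labelled as hepatocellular, the 4 hepatocyte markers summed to at most 1.56 TPM. In bulk tumor RNA, fewer cells of a type and less RNA per cell cannot be told apart.

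A dividing cell passes from G1 into S phase when cyclin E and E2F factors switch on the genes that license origins, copy DNA and make nucleotides. It then accumulates cyclin A and cyclin B with Cdk1, builds a spindle, attaches chromosomes through centromeres, and exits mitosis when APC/C with Cdc20 degrades the cyclins. RNA of the mitosis genes peaks in G2 and M phase and RNA of the replication genes peaks around G1/S, and in solid tumors both groups are widely read as proliferation genes. Values are TPM, transcript abundances scaled for transcript length and to one fixed total per tumor, and changes are differences of log2(TPM + 1), a scale that understates the change of genes with low values. A gene was called when its Benjamini-Hochberg adjusted p in limma was under 0.05.

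In treatment-naïve tumors, all 47 genes differed in level between the 12 models (limma F test, 93.6% of all genes tested). Their model means spanned 1.12 (Cenpa) to 3.64 (Mybl2) on the log2 scale, with a median span of 1.93 against 1.74 over all genes. Averaged over the 47 genes, log2(TPM + 1) was lowest in RAG (3.89 to 4.48 in 3 tumors) and KLN205 (4.30 to 4.41), which overlapped, and highest in B16-F10 (5.50 to 5.68) and MBT2 (5.58 to 5.64). CT26.WT (5.40 to 5.72), MC38 (5.38 to 5.70), B16-F10 and MBT2 overlapped one another, whereas no RAG or KLN205 tumor reached the lowest tumor of Hepa 1-6 (4.65 to 4.77), the next model in order. In between lay 4T1 (4.78 to 5.04), EMT6 (4.82 to 4.93), LL/2 (4.93 to 5.04), BNL (4.99 to 5.17) and Renca (5.15 to 5.38), neighbors whose ranges overlapped or nearly touched. These levels were not rescaled. The protein-coding share of TPM ran from 37.1% to 60.5% in Base tumors (KLN205 is given below), and its part in this order was not tested.

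**Figure D1:**
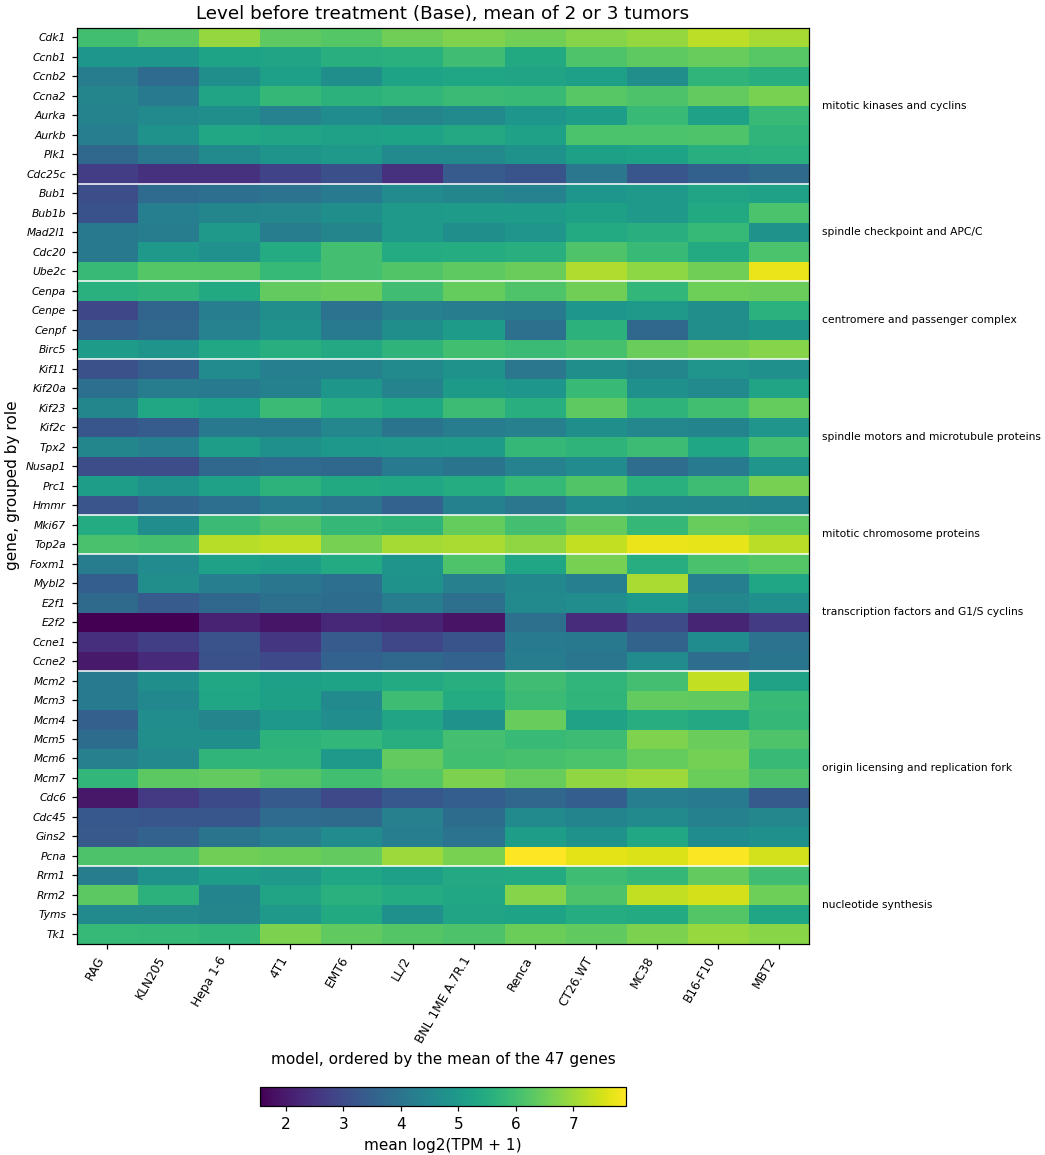
Level of the 47 genes in treatment-naïve tumors. Each row of the heat map is a gene and each column a model, ordered by the mean over genes, and the color is the model mean of log2(TPM + 1) in Base tumors (3 per model, 2 in MC38). RAG and KLN205, with means of 4.11 and 4.35 over the genes, stand at the low end, and B16-F10 and MBT2, with 5.60 and 5.61, at the high end. Levels are TPM as deposited, without rescaling.

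Pcna, the sliding clamp of the replication fork, had the highest mean level at Base (138 TPM), followed by Top2a, the topoisomerase that untangles sister chromatids (136 TPM). E2f2, an activator of S phase genes, had the lowest (4.52 TPM), with a lowest, median and highest tumor of 0.98, 3.6 and 14.04 TPM. Mybl2, the MYB factor that cooperates with the MuvB complex on mitotic promoters, stood at 146.89 and 126.1 TPM in the 2 MC38 tumors. In RAG it stood at 8.71, 14.14 and 8.03 TPM, so that the model at the top exceeded the one at the bottom in every tumor. Mcm2, a subunit of the MCM helicase, stood at 150.43, 169.93 and 163.78 TPM in B16-F10 and at 12.37, 22.43 and 18.55 TPM in RAG. RAG had the lowest model mean for 30 of the 47 genes, among them 9 of the 10 licensing and fork genes, all but Cdc45, which was lowest in KLN205.

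LEN was compared with NT on day 8 to see how a week of treatment changed these genes. Averaged over the 12 models, 39 of the 47 genes fell with LEN, where 9.87% of all genes tested fell, and none rose by limma (1 at an unadjusted p under 0.05), where 13.7% of all genes rose. Their median change was -0.29 on the log2 scale against -0.0019 over all genes, and 46 of the 47 mean changes were below 0. All 27 mitosis genes fell, with changes from -0.47 to -0.25 and a median of -0.36. Of the 20 genes of G1/S, replication and nucleotide synthesis, 12 fell, and the median was -0.14.

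**Figure D2:**
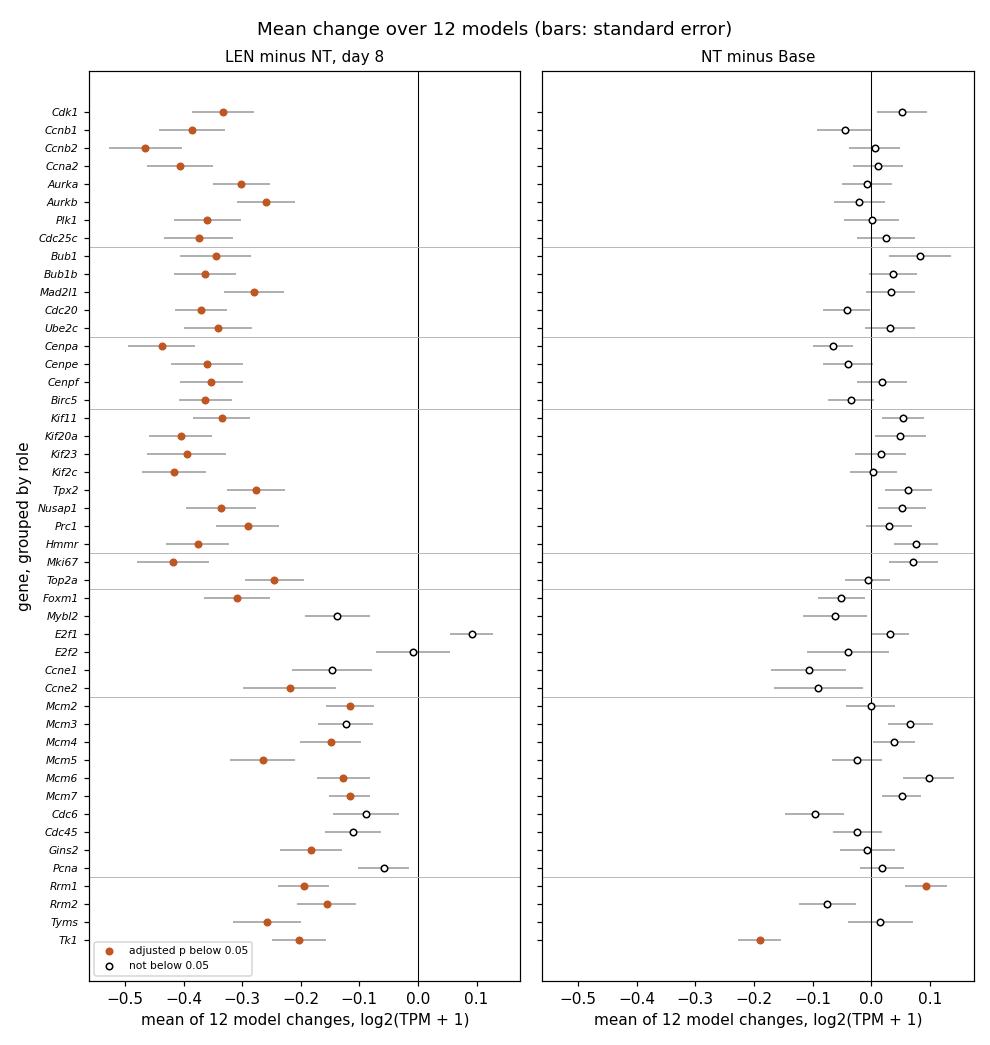
Mean change of each gene with LEN and between Base and NT. Points are the mean over 12 models of the difference in log2(TPM + 1), with bars of 1 SE, for LEN minus NT and for NT minus Base, which share the NT tumors. The SE holds the spread of tumors within groups and none of the spread between models. With LEN the mitosis genes lie between -0.47 and -0.25, while E2f1 alone lies above 0 at 0.09. Between Base and NT all 47 genes lie between -0.19 and 0.10.

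Among the mitotic kinases and cyclins, all 8 fell. Ccnb1, the cyclin B1 subunit of the mitosis-promoting kinase, had a lowest, median and highest level of 27.37, 51.015 and 97.21 TPM in the 36 NT tumors and of 10.45, 35.205 and 72.32 TPM in the 36 LEN tumors. The ranges overlapped across models, but within a model Ccnb1 was lower with LEN in 11 of 12, and the mean change was -0.39 (SE 0.056, limma adjusted p = 3.62e-07). Ccnb2, which encodes cyclin B2, had the largest mean change of the 47 genes, -0.47 (SE 0.063, limma adjusted p = 5.61e-08). The other 6 were Ccna2 (cyclin A2, -0.41), Cdc25c (the phosphatase that activates Cdk1, -0.37), Plk1 (Polo-like kinase, -0.36), Cdk1 itself (-0.33), and the Aurora kinases Aurka (-0.30) and Aurkb (-0.26).

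Cdc20, the activator of APC/C at anaphase, had the lowest adjusted p of the 47 genes. Its lowest, median and highest levels were 18.1, 39.245 and 87.95 TPM in NT tumors and 12.39, 30.08 and 66.74 TPM in LEN tumors, a mean change of -0.37 (SE 0.044, limma adjusted p = 3.36e-09). The checkpoint kinases Bub1 (-0.35) and Bub1b (-0.36), the checkpoint protein Mad2l1 (-0.28) and the APC/C ubiquitin-conjugating enzyme Ube2c (-0.34) fell as well. Cenpa, the histone H3 variant that marks centromeres, stood at 29.72, 64.21 and 138.37 TPM in NT and at 20.82, 48.5 and 97.14 TPM in LEN tumors (lowest, median and highest). Its mean change was -0.44 (SE 0.058, limma adjusted p = 3.52e-08).

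Birc5, or survivin, a subunit of the chromosomal passenger complex, went from 29.89, 48.775 and 119.84 TPM in NT to 12.01, 41.62 and 78.63 TPM in LEN tumors, with a mean change of -0.36 (SE 0.045, limma adjusted p = 1.06e-08). Cenpe, a kinetochore motor, and Cenpf, a kinetochore protein, changed by -0.36 and -0.35. All 8 spindle genes fell. Kif2c, a kinesin that depolymerizes microtubules at kinetochores, had levels of 8.65, 17.04 and 33.78 TPM in NT and 3.42, 12.355 and 25.18 TPM in LEN tumors, a change of -0.42 (SE 0.055, limma adjusted p = 3.53e-08). Kif20a, a kinesin of the central spindle and cytokinesis, had 13.44, 25.205 and 58.07 TPM in NT and 4.76, 19.935 and 49.5 TPM in LEN tumors, a change of -0.41 (SE 0.054, limma adjusted p = 4.5e-08). The remaining spindle genes were Kif23 (-0.39), Hmmr (-0.38), Nusap1 (-0.34), Kif11 (-0.34), Prc1 (-0.29) and Tpx2 (-0.28).

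Mki67, which encodes the proliferation marker Ki-67, had a lowest, median and highest level of 27.01, 68.565 and 98.65 TPM in NT tumors and of 9.8, 51.61 and 96.81 TPM in LEN tumors. The highest LEN tumor, a RAG tumor, lay close to the highest NT tumor, whereas the lowest, a KLN205 tumor, lay far under the lowest NT tumor. The mean change was -0.42 (SE 0.062, limma adjusted p = 5.1e-07), and Mki67 was lower with LEN in 11 of 12 models, all but RAG. Top2a changed by -0.25.

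The genes of G1/S and replication changed less. Foxm1, the forkhead factor that drives G2/M genes, fell by 0.31 on the log2 scale (SE 0.056, limma adjusted p = 2.29e-05) and was the one gene of the 47 that was lower with LEN in all 12 models. Ccne2 (cyclin E2) changed by -0.22 (adjusted p = 0.037 by limma), a call that was lost in 25 of the alternatives tried. Ccne1 (cyclin E1) stood at 3.3, 8.81 and 21.96 TPM in NT and 1.77, 7.89 and 23.07 TPM in LEN tumors (lowest, median and highest), and its change of -0.15 did not pass (limma adjusted p = 0.114). Mybl2 (-0.14) and E2f2 (-0.0078) did not pass either.

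E2f1, the founding E2F activator, was the only one of the 47 genes with a mean change above 0. Its lowest, median and highest levels were 10.03, 16.85 and 31.7 TPM in NT tumors and 8.19, 19.02 and 34.3 TPM in LEN tumors, and it was higher with LEN in 8 of 12 models. The mean change of 0.09 (SE 0.036) missed the threshold (limma adjusted p = 0.0595). It passed under each of 3 rescalings of the tumors, by the upper quartile, by the median ratio to a reference and by the total over protein-coding genes.

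Of the 10 licensing and fork genes, 6 fell. Mcm5, a subunit of the MCM helicase, had levels of 19.3, 47.805 and 119.14 TPM in NT and 15.16, 41.235 and 100.95 TPM in LEN tumors, a change of -0.27 (SE 0.055, limma adjusted p = 1.79e-04) with a lower mean in 11 of 12 models. Gins2 of the helicase-activating GINS complex changed by -0.18, and Mcm4 (-0.15), Mcm6 (-0.13), Mcm2 (-0.12) and Mcm7 (-0.12) by less. Calls for Mcm2, Mcm4 and Mcm6 were lost when B16-F10, Hepa 1-6, KLN205 or MBT2 was left out, those for Mcm2 and Mcm4 also without EMT6, that for Mcm2 without MC38 or LL/2 NT replicate 1, and that for Mcm6 without CT26.WT or RAG NT replicate 1. The genes that did not pass were Mcm3 (-0.12), Cdc45 (a helicase cofactor, -0.11), Cdc6 (the loader of MCM, -0.09) and Pcna (-0.06). Pcna stood at 67.23, 109.375 and 266.2 TPM in NT and 40.07, 114.595 and 337.67 TPM in LEN tumors, so its median was slightly higher with LEN (limma adjusted p = 0.372).

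All 4 genes of nucleotide synthesis fell. Rrm2, the inducible subunit of ribonucleotide reductase, stood at 12.15, 62.695 and 181.45 TPM in NT and 10.87, 49.435 and 171.05 TPM in LEN tumors, with a change of -0.16 (SE 0.050, limma adjusted p = 0.0175) that was lost without KLN205 or without MBT2. Tyms (thymidylate synthase, -0.26), Tk1 (thymidine kinase, -0.20) and Rrm1 (the large reductase subunit, -0.19) also fell. With a block for replicate number, the calls for Rrm1, Rrm2 and Tk1 were lost.

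Because the mitosis genes moved together and the replication genes less so, their promoters were searched for the short sequences by which these groups are usually described. These are the CHR element (TTTGAA or TTCGAA), the CCAAT box (CCAAT) and the E2F site (TTTGGCGC, TTTCCCGC, TTTGCCGC or TTTCGCGC), read on both strands and allowed to overlap. RefSeq windows of 300 bases, from 250 before to 50 after the start in GRCm38.p6, were given for 38 of the 47 genes, 3 of them with several starts. A CHR match was present in 17 of 22 mitosis genes (77.3%), in 4 of 16 of the others (25%) and in 21.7% of all 27025 genes with a window. An E2F match was present in 1 of 22 mitosis genes (4.55%), in 6 of 16 of the others (37.5%) and in 2.61% of all genes. A CCAAT box was present in 18 of 22 (81.8%), 10 of 16 (62.5%) and 41.1%. Such matches describe the sequence and are not evidence of binding. The windows are printed 5′ to 3′ along the gene, so a match on the opposite strand appears as its reverse complement. Shown with matches in capitals are 3 mitosis genes that fell with LEN (Ccnb2, Cdc20, Mki67) and 2 MCM genes with E2F matches:
Ccnb2 (chr9:70421505-70421804, minus strand): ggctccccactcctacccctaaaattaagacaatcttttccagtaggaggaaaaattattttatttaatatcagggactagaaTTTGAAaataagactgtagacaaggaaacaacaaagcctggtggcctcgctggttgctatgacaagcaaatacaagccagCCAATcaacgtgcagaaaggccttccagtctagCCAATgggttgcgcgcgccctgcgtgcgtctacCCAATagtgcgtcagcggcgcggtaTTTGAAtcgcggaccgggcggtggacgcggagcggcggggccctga
Cdc20 (chr4:118437294-118437593, minus strand): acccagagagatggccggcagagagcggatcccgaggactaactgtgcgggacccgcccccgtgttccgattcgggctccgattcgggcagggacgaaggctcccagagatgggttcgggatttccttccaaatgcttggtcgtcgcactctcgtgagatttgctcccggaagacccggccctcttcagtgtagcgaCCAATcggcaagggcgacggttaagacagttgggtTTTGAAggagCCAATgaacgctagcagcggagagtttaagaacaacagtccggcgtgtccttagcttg
Mki67 (chr7:135716330-135716629, minus strand): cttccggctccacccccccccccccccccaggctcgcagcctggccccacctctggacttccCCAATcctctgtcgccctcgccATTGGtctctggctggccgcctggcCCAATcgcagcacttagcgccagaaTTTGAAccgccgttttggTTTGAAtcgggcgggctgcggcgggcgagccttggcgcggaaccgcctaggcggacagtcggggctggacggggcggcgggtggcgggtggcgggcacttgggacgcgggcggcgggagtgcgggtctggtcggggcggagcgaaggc
Mcm5 (chr8:75109259-75109558, plus strand): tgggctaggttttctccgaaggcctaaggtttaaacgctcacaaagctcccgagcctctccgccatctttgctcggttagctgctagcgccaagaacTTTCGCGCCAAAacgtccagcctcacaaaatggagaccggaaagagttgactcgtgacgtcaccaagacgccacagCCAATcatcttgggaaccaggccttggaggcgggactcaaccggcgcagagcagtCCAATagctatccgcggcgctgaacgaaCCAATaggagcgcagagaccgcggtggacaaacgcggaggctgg
Mcm6 (chr1:128359656-128359955, minus strand): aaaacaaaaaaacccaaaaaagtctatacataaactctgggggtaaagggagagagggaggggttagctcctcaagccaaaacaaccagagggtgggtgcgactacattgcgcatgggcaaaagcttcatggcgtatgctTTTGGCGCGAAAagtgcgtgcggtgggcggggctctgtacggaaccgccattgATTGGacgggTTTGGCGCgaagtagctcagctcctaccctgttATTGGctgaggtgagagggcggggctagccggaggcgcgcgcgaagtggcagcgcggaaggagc

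The Ccnb2 window held 2 CHR and 3 CCAAT matches, the Cdc20 window 1 and 2, and the Mki67 window 2 and 3. The Mcm5 window held 2 E2F and 3 CCAAT matches and the Mcm6 window 3 and 2. In each of these MCM windows, 2 E2F matches on opposite strands shared bases and are printed as 1 run of capitals. The E2f1 window, 1 of the 16 outside mitosis, held 188 coding bases before its start in GENCODE M21, so it does not describe that gene's upstream region and is not shown. Without it the E2F share was 6 of 15 and the CHR share 4 of 15.

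The size of the LEN effect differed between models for 22 of the 47 genes (limma F test of 11 contrasts), where 35.3% of all genes tested differed. That count was unstable, being 35 without 4T1, 7 without RAG and 0 with a block for replicate number (further alternatives are given below). The 3 genes with the lowest F test p were Tpx2, an activator of Aurora A on the spindle (adjusted p = 0.00134 by limma), Cdc20 (0.00569) and Bub1 (0.00599). Tpx2 stood at 27.23, 24.48 and 22.62 TPM in KLN205 NT tumors and at 13.15, 18.73 and 8.57 TPM with LEN, every LEN tumor below every NT tumor. In RAG the order was the opposite, with 26.61, 26.52 and 24.09 TPM in NT and 33.46, 42.24 and 35.22 TPM in LEN tumors. The Tpx2 changes were -0.89 in KLN205 and 0.50 in RAG.

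Cdc20 showed the same 2 models at its extremes. In KLN205 it stood at 38.63, 35.12 and 30.85 TPM in NT and 19.34, 26.21 and 12.39 TPM in LEN tumors, without overlap. In RAG it stood at 21.58, 18.68 and 18.1 TPM in NT and 21.19, 25.23 and 21.83 TPM in LEN tumors, where 1 LEN tumor lay within the NT range. Bub1 changed most in 4T1 (-1.23), next in KLN205 (-0.92), and by 0.23 in RAG, where NT tumors had 10.57, 10.29 and 10.01 TPM and LEN tumors 11.54, 14.21 and 11.21 TPM.

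**Figure D3:**
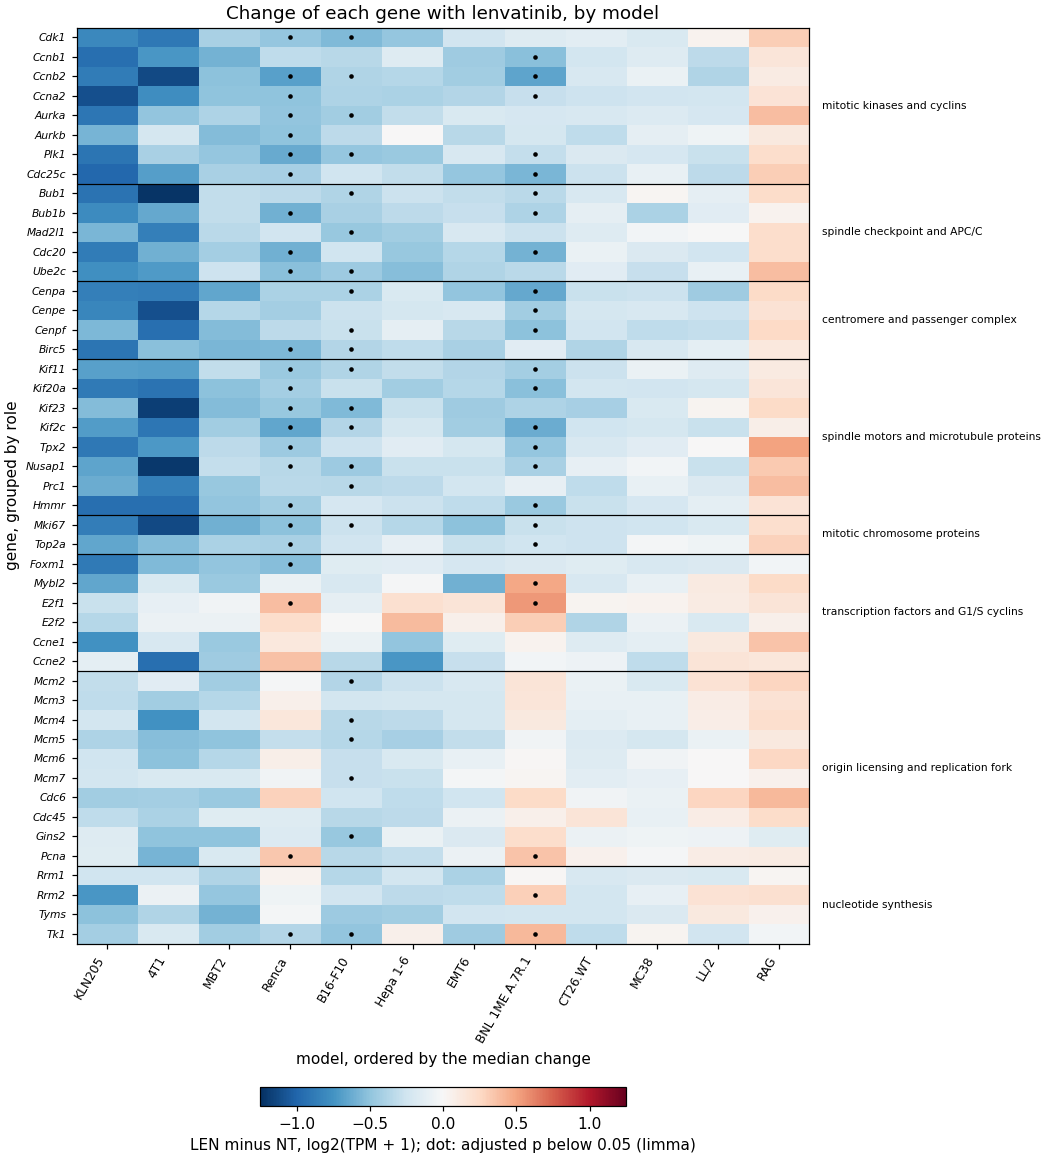
Change of each gene with LEN in each model. Rows are the 47 genes grouped by role, columns the 12 models ordered by their median change, color the LEN minus NT difference in log2(TPM + 1) between 3 and 3 tumors, and dots mark limma adjusted p under 0.05 within the model. Nearly all mitosis rows are blue outside RAG, where all 27 are red, and many of the lower rows are red in BNL, LL/2, RAG and Renca. In LL/2 the red of the licensing and fork rows depends in part on NT replicate 2, a low tumor.

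Within single models, 63 of 564 combinations of gene and model passed as lower with LEN (1.30% of all combinations of a tested gene and a model) and 7 as higher (3.56%). All of them came from B16-F10, BNL and Renca, and by limma no gene of the 47 passed in the other 9 models, where 158 of 423 combinations were lower and 5 higher at an unadjusted p under 0.05. The two-group test the study used called none in those 9 models either. All 3 LEN tumors lay below all 3 NT tumors in 263 combinations (10.9% of all combinations), and all 3 above in 20 (13.5%). The separation below was seen for 43 genes in MBT2 (10.6% of all genes in that model), 38 in B16-F10 (11.3%), 35 in KLN205 (12.7%) and 32 in Renca (19.4%). It was seen for 25 in BNL (9.21%), 25 in Hepa 1-6 (5.02%), 21 in MC38 (6.41%), 16 in EMT6 (7.02%), 15 in CT26.WT (7.58%) and 11 in 4T1 (9.14%), but for 2 in LL/2 (23.7%) and none in RAG (9.06%).

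In B16-F10, 22 genes fell (2.42% of all genes tested in that model), 16 of them mitosis genes. Kif23, a kinesin of the cytokinetic midzone, had the largest called change. It stood at 67.12, 69.14 and 54.93 TPM in NT and at 42.77, 46.9 and 39.53 TPM in LEN tumors, which did not overlap, a change of -0.55 (SE 0.11, limma adjusted p = 0.0243). The count of 22 rested on single tumors, being 26 without NT replicate 5 but 1 to 8 without any other tumor, and 1 without LEN replicate 5. In B16-F10 the markers of skeletal muscle (5 of 5, median 3.40), macrophages (6 of 6, 1.65), fibroblasts (6 of 7, 1.68), T cells (5 of 5, 1.57) and adipocytes (3 of 4, 1.61) were higher with LEN and 3 of 6 endothelial markers were lower (median -1.03). Of the erythroid markers 1 of 5 was lower (median -3.29), as was 1 of 5 melanocyte markers (median 0.05), and 1 of 4 tested neutrophil markers was higher (1.15). Their part in the change was not tested.

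In Renca, 22 genes fell (7.15% of all genes) and 2 rose (4.91%). Ccnb2 stood at 37.74, 32.09 and 35.1 TPM in NT and 22.14, 23.03 and 19.4 TPM in LEN tumors, without overlap, a change of -0.68 (SE 0.099, limma adjusted p = 0.00643). The genes that rose were E2f1 and Pcna. E2f1 stood at 25.16, 21.2 and 22.89 TPM in NT and 28.6, 31.65 and 30.75 TPM in LEN tumors, a change of 0.38 (SE 0.090, limma adjusted p = 0.0369). Pcna stood at 266.2, 237.02 and 249.28 TPM in NT and 300.54, 337.67 and 316.26 TPM in LEN tumors, a change of 0.34 (SE 0.081, limma adjusted p = 0.0376). In both genes every LEN tumor lay above every NT tumor. The lower count was 26 without NT replicate 3, 16 without NT replicate 2 and 5 (without NT replicate 5) to 10 without any other tumor. Neither higher call remained without any tumor but NT replicate 2, without which 3 were called. In Renca 5 of 6 endothelial markers (median -1.47), 5 of 6 macrophage markers (-1.57) and 3 of 4 tested erythroid markers (-3.69) were lower with LEN, as was 1 of 7 fibroblast markers. Of the neutrophil markers 2 of 3 tested were higher (1.30), and of 2 tested T cell markers 1 was lower and 1 higher. Their part in the change was not tested.

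In BNL 19 genes fell (5.21% of all genes), all of them mitosis genes, led by Ccnb2, with 38.97, 40.53 and 37.87 TPM in NT and 25.28, 25.22 and 22.6 TPM in LEN tumors and a change of -0.66 (SE 0.070, limma adjusted p = 7.85e-04). E2f1, Mybl2, Tk1, Pcna and Rrm2 were called higher, a smaller share of the 47 genes than the 26.3% of all genes called higher in that model. E2f1 stood at 10.81, 11.35 and 10.03 TPM in NT and at 17.1, 15.98 and 15.15 TPM in LEN tumors, a change of 0.54 (SE 0.084, limma adjusted p = 0.0038). Neither gene's groups overlapped. The 5 higher calls became 2 to 4 when 1 tumor was left out, 2 of them without NT replicate 3 or without LEN replicate 4. The share of TPM from protein-coding genes was 54.3% to 57.4% in BNL NT and 60.2% to 61.9% in BNL LEN tumors, and the skeletal muscle markers Acta1, Ckm, Myh4, Tnnt3 and Mylpf summed to 37.0 to 112 and 1526 to 2211 TPM, respectively. After each of the 3 rescalings all 19 genes were still called lower and 1 of the 5 was still called higher. Markers of epithelium (3 of 3 tested, median 5.17), adipocytes (3 of 4, 2.97) and T cells (4 of 5 tested, 0.94) were also higher with LEN in BNL, and those of endothelium (6 of 6, -1.27), erythroid cells (4 of 5, -1.49) and fibroblasts (6 of 7, -0.31) were lower. In addition 2 of 5 neutrophil markers, 1 of 2 tested skin epithelium markers and the 1 tested B cell marker were higher, and 1 of 6 macrophage markers was lower. The part of these cells in the changes was not tested.

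**Figure D4:**
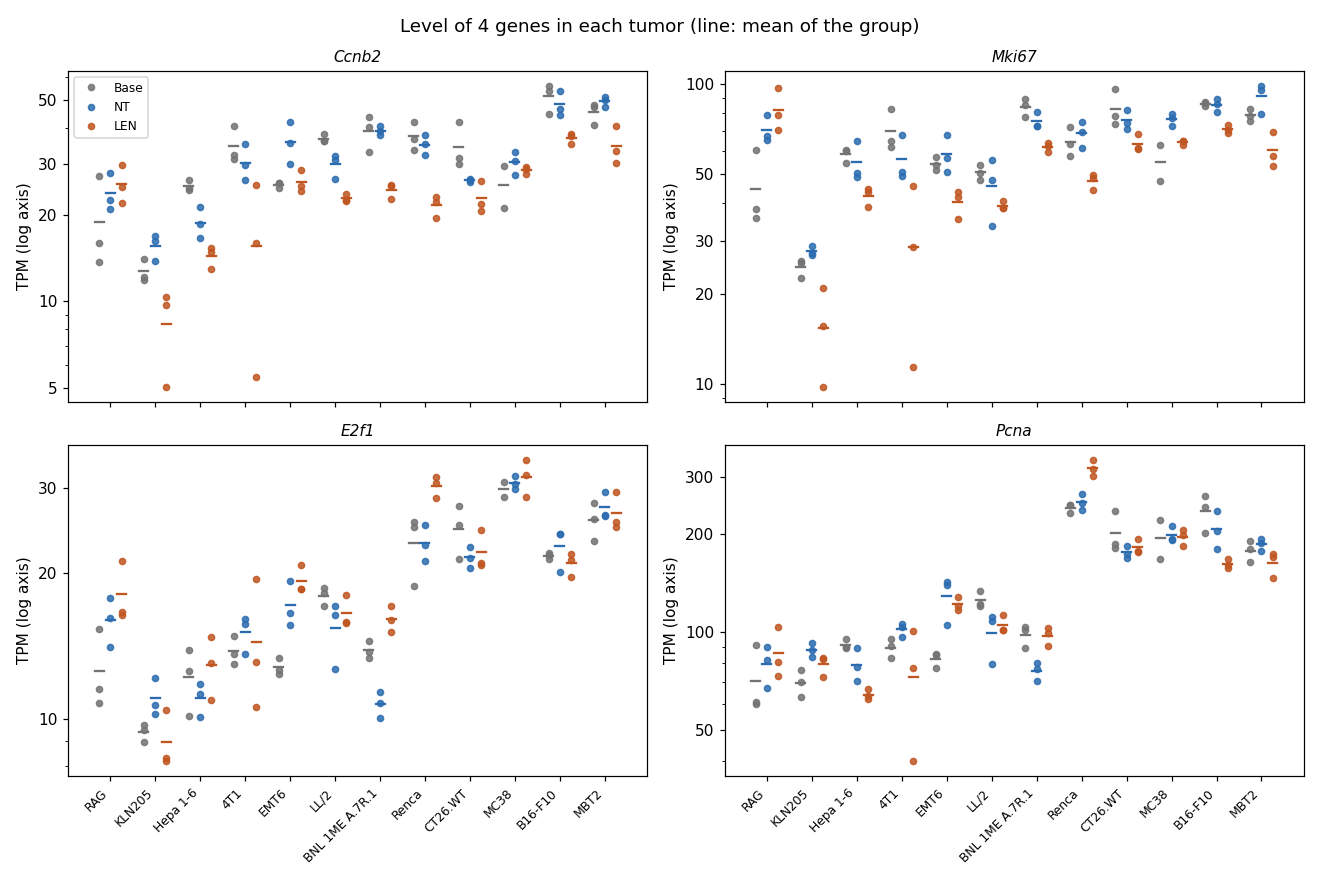
Level of Ccnb2, Mki67, E2f1 and Pcna in every tumor. Each panel is a gene, points are single tumors in TPM on a log axis by model, colors mark Base, NT and LEN, and short lines are group means (3 tumors, 2 for MC38 Base). In BNL and Renca the LEN tumors lie under the NT tumors for Ccnb2 and above them for E2f1 and Pcna, and in RAG they lie within or above the NT tumors for Ccnb2 and Mki67.

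In RAG all 27 mitosis genes had a change above 0 (median 0.22), although none passed, and for 7 of the 47 genes the 3 LEN tumors lay above the 3 NT tumors (5.09% of all genes in that model). Mki67 there stood at 35.86, 60.34 and 38.23 TPM in Base, 78.9, 65.09 and 67.25 TPM in NT, and 70.26, 96.81 and 78.68 TPM in LEN tumors. LEN replicate 3, with 96.81 TPM, was the highest and enlarged the Mki67 change. Ccnb2 stood at 27.84, 22.48 and 20.92 TPM in NT and 21.95, 29.72 and 24.96 TPM in LEN tumors, with overlap. The count of genes whose LEN effect differed between models was 7 without RAG, 8 without BNL and 1 without both (the last chosen after seeing the data).

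4T1 and KLN205 had the largest median decreases over the mitosis genes, -0.86 in each, with wide spread among LEN tumors. In 4T1, Mki67 stood at 49.54, 67.69 and 50.99 TPM in NT and 45.86, 11.39 and 28.62 TPM in LEN tumors. In KLN205 it stood at 28.94, 27.44 and 27.01 TPM in NT and 15.61, 20.86 and 9.8 TPM in LEN tumors. Both groups lay below NT without overlap, but limma called no gene in either model (10 and 33 lower at an unadjusted p under 0.05, respectively). The 4T1 LEN tumor with 11.39 TPM, replicate 4, also had the lowest mean over the 47 genes (3.44 against 4.77 and 4.20 in the others). Its protein-coding share was the lowest too (27.5% against 45.3% and 43.8%), and the part of that share in the change was not tested. Top2a in 4T1 stood at 139.39, 176.33 and 117.22 TPM in NT and 146.68, 64.21 and 97.33 TPM in LEN tumors. The size of the 4T1 decrease, and so its rank, leaned on LEN replicate 4. When all models shared 1 estimate of the spread, 32 genes were called lower in 4T1 (15.8% of all genes in that fit) and 26 in KLN205 (2.46%).

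In the remaining models, whose changes were smaller than in 4T1 and KLN205, the median over the mitosis genes was -0.43 in MBT2, -0.35 in EMT6, -0.31 in Hepa 1-6, -0.23 in CT26.WT, -0.19 in MC38 and -0.19 in LL/2. Mki67 in LL/2 stood at 55.96, 33.69 and 47.85 TPM in NT and 38.59, 38.66 and 40.65 TPM in LEN tumors. There NT replicate 2 alone lay below the LEN tumors and made the change smaller. In MBT2, Mki67 stood at 95.59, 98.65 and 79.71 TPM in NT and 69.2, 57.68 and 53.46 TPM in LEN tumors, and Mcm5 at 77.94, 84.31 and 65.54 TPM in NT and 57.19, 50.63 and 51.18 TPM in LEN tumors. Both genes separated without overlap and neither was called. After each of the 3 rescalings, 14 genes were called lower in MBT2, where 0.765% to 0.922% of all genes were. In LL/2 the 20 genes of G1/S, replication and nucleotide synthesis had a median of 0.09, with 14 of them above 0, where the median over all genes was -0.13. For the licensing and fork genes except Gins2, the lowest LL/2 NT level was that of replicate 2. Mcm3 stood at 55.48, 37.45 and 54.13 TPM in NT and 51.5, 50.67 and 52.3 TPM in LEN tumors. Pcna stood at 111.03, 79.47 and 107.72 TPM in NT and 101.01, 112.5 and 101.25 TPM in LEN tumors. The sign of these 2 changes depended on NT replicate 2. In BNL the 20 genes had a median of 0.14, no higher than the 0.17 over all genes.

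**Figure D5:**
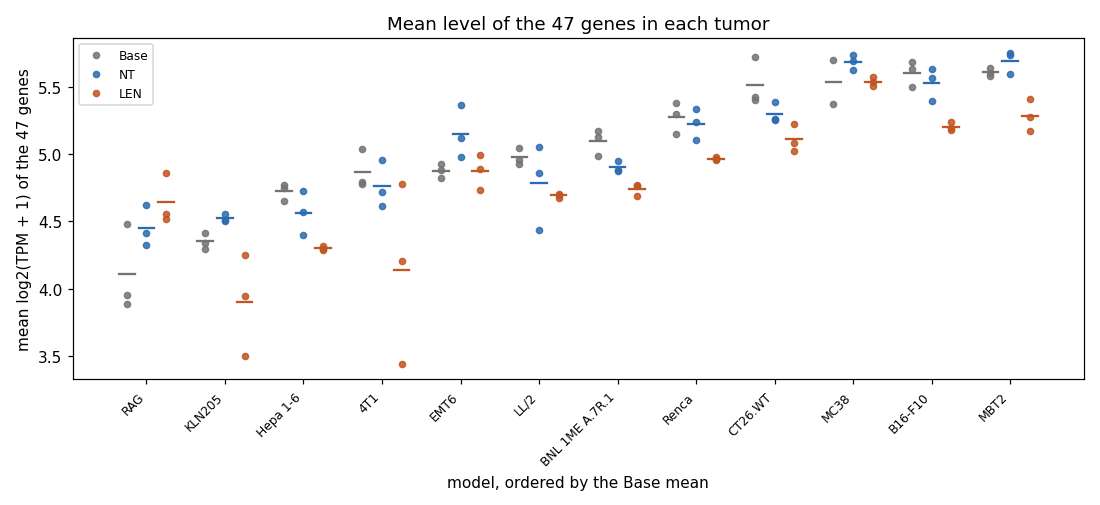
Mean of log2(TPM + 1) over the 47 genes in every tumor. Columns are the 12 models, points single tumors colored by Base, NT and LEN. The lowest single LEN tumors are in 4T1 and KLN205, where LEN tumors spread from 3.44 to 4.77 and from 3.50 to 4.25. In RAG the LEN tumors lie at 4.52 to 4.86 against 4.32 to 4.62 in NT.

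Markers of other cells in the tumors moved with LEN as well. Averaged over models, 6 of 6 endothelial markers fell (median -0.87), 5 of 6 macrophage markers fell (median -0.38) and 5 of 5 erythroid markers fell (median -2.12), while 5 of 5 neutrophil markers (median 0.57), 5 of 5 tested T cell markers (median 0.40) and 5 of 5 skeletal muscle markers (median 1.13) rose. Of 4 epithelial markers 3 rose, fibroblast markers were mixed (2 of 7 fell, 1 rose), as were adipocyte markers (1 of 3 tested fell, 2 rose), and 1 of 3 tested skin epithelium markers rose. Within models, the epithelial median was 5.17 in BNL and -0.16 to 0.39 in the other models with a tested marker. The skeletal muscle median was 4.61 in BNL, 3.40 in B16-F10 and -0.38 to 0.79 in the others. These 2 means thus leaned on few models. Summed endothelial markers had a median of 55.2 TPM in NT and 29.3 TPM in LEN tumors, T cell markers 6.545 and 15.965 TPM, and no melanocyte or hepatocyte marker passed by limma (0 also at an unadjusted p under 0.05). B cell markers summed to at most 6.58 TPM in any tumor. The part of these cells in the changes of the 47 genes was not tested.

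Other genes of the cell cycle were read from lists drawn up separately from the 47, but chosen, like the 47, with earlier results of these data known. In the mean over models, all 38 of 38 further mitosis genes fell with LEN (median -0.31), with the largest change in Ckap2l, a spindle protein (-0.38, limma adjusted p = 1.19e-05). Of 49 further genes of replication and repair, 26 fell (median -0.14), with the largest change in Dbf4, the activator of the Cdc7 kinase at origins (-0.27, limma adjusted p = 7.42e-05). Within models, 7 of these 49 were lower in B16-F10 (2.42% of all genes), 2 lower (7.15%) and 1 higher (4.91%) in Renca, and 4 higher in BNL, where 26.3% of all genes were. Of the 64 replication-dependent histone genes tested, 60 fell (median -0.42), led by Hist1h1a (-0.71, limma adjusted p = 8.63e-14). Histone genes are near-identical copies, so reads may be split among them and single genes are uncertain.

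Of 15 tested genes that act on entry into S phase, 3 rose in the mean over models, 3 fell and 9 did not pass. Cdkn1a, which encodes the CDK inhibitor p21, had a lowest, median and highest level of 13.89, 60.61 and 218.94 TPM in NT and 20.57, 83.895 and 264.18 TPM in LEN tumors. It was higher with LEN in 12 of 12 models, with a mean change of 0.41 (SE 0.038, limma adjusted p = 2e-12) that ranged from 0.04 in MC38 to 1.09 in Renca. Ccnd3 (cyclin D3, 0.16) and Cdk6 (a cyclin D partner, 0.17) rose as well, while E2f3 (-0.17), the INK4 inhibitor Cdkn2c (-0.20) and the pocket protein Rbl1 (-0.15) fell. The genes that did not pass were Ccnd1 (0.02), Ccnd2 (0.09), Cdk2 (-0.06), Cdk4 (-0.04), Myc (0.07), Cdkn1b (0.01), Cdkn2d (-0.03), Rb1 (-0.07) and Rbl2 (-0.05), and Cdkn1c was too low to test.

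NT and Base tumors were compared to see how the genes moved over a week of growth without drug. Averaged over models, 1 of the 47 genes was lower on day 8 (11.5% of all genes tested) and 1 was higher (17.0%), and the median change was 0.01, the same as over all genes. These changes use the same NT tumors as the LEN comparison, so the 2 sets of values are given side by side only. Under rescaling the balance of calls over all genes turned, from 11.5% lower and 17.0% higher to 20.1% and 8.12% with the upper quartile, to 3148 genes lower and 1826 higher with the median ratio, and to 22.0% and 6.86% with the protein-coding total. The 47 genes then gave 6, 5 and 9 lower calls, respectively, and no higher call.

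The gene that fell was Tk1, with a lowest, median and highest level of 43.61, 78.31 and 131.91 TPM in Base and 35.81, 69.115 and 130.55 TPM in NT tumors. Its change was -0.19 (SE 0.037, limma adjusted p = 9.09e-05), lower in 10 of 12 models, and it remained called under every rescaling. The gene that rose was Rrm1, with 13.67, 38.95 and 88.66 TPM in Base and 25.65, 37.575 and 88.36 TPM in NT tumors, a change of 0.09 (SE 0.036, limma adjusted p = 0.0474) that was higher in 6 of 12 models. This call was lost in 43 of the 71 fits that left out 1 tumor and under each rescaling. Mcm6 had a like change (0.10, SE 0.043) that did not pass (limma adjusted p = 0.0810), with 14.17, 58.03 and 99.95 TPM in Base and 23.59, 59.725 and 101.7 TPM in NT tumors.

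The change from Base to NT differed between models for 29 of the 47 genes (limma F test), where 66.5% of all genes tested differed. All 10 licensing and fork genes were among them, and the lowest adjusted p values belonged to Mcm5 (5.15e-05), Bub1b (7.3e-05) and Pcna (9.56e-05). Mcm5 stood at 10.26, 15.65 and 13.75 TPM in RAG Base and at 28.6, 23.21 and 21.12 TPM in RAG NT tumors, a change of 0.84 without overlap. RAG, the model with the lowest levels at Base, had 43 genes above 0 and a median change of 0.34, and by limma none was called there (10 higher at an unadjusted p under 0.05).

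Within models, 14 combinations of gene and model were lower in NT (1.69% of all combinations) and 17 higher (6.33%), all in BNL, EMT6 and KLN205. In the other 9 models limma called none, with 32 of 423 combinations lower and 20 higher at an unadjusted p under 0.05. The 3 NT tumors lay below all Base tumors of the model in 72 of 564 combinations (13.9% of all) and above in 83 (17.1%). In BNL, 14 genes were lower (4.71% of all genes in that model), 12 of them outside mitosis, with Ccne1 the largest at 8.1, 9.1 and 7.42 TPM in Base and 6.53, 3.51 and 4.64 TPM in NT tumors (-0.67, limma adjusted p = 0.0409). The count in BNL was 14 without Base replicate 3 and 3 (without NT replicate 3) to 8 without any other tumor. In BNL the markers of skeletal muscle (5 of 5, median -2.51), adipocytes (4 of 4, -2.35) and epithelium (3 of 3 tested, -2.60) were lower in NT, and those of macrophages (4 of 6, 1.33), fibroblasts (6 of 7, 0.94) and endothelium (2 of 6, 0.10) were higher, and their part in the change was not tested. Tk1 stood at 65.15, 69.29 and 74.51 TPM in Base, 54.33, 47.76 and 39.94 TPM in NT and 61.88, 67.94 and 57.77 TPM in LEN tumors. Its 3 NT tumors, which enter both comparisons, were the lowest.

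In EMT6, 9 genes were higher in NT (17.2% of all genes), led by Ube2c at 57.78, 69.87 and 63.93 TPM in Base and 109.13, 97.13 and 117.21 TPM in NT tumors (0.75, limma adjusted p = 0.00539). In KLN205, 8 genes were higher (28.3% of all genes), led by Pcna at 62.98, 70.1 and 76.21 TPM in Base and 88.07, 83.65 and 92.58 TPM in NT tumors (0.34, limma adjusted p = 0.0308). Both groups separated without overlap. The count in EMT6 was 12 without NT replicate 2 and 1 (without Base replicate 2) to 4 without any other tumor. In KLN205 it was 0 without any 1 of the NT tumors and 2 to 5 without any 1 of the Base tumors. In EMT6, markers of skeletal muscle (3 of 5, median -1.84), neutrophils (2 of 5, -0.54), adipocytes (1 of 4, -1.35), macrophages (1 of 6, -0.10), erythroid cells (1 of 5, -0.42) and skin epithelium (1 of 2 tested, -0.60) were lower in NT, and of 3 tested epithelial markers 2 were higher and 1 lower. In KLN205, 2 of 4 epithelial (0.37), 1 of 6 endothelial (0.33), 1 of 6 macrophage (0.57) and 1 of 3 tested skin epithelium markers (0.50) were higher. Their part in the changes was not tested. The protein-coding share of TPM also separated, at 43.5% to 45.9% in Base and 57.2% to 61.0% in NT tumors of EMT6, and at 39.6% to 42.3% and 50.7% to 52.7% in KLN205. After each rescaling none of the 8 KLN205 genes was called and 7 had the opposite sign, and 1 to 3 of the 9 EMT6 genes were still called, whereas all 14 BNL genes were still called lower.

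Of the other lists, none of 38 further mitosis genes was called between Base and NT in the mean over models by limma (2 higher at an unadjusted p under 0.05). Within models, 9 were higher in EMT6 (17.2% of all genes) and 9 in KLN205 (28.3%), 6 were lower (4.71%) and 1 higher (23.6%) in BNL, 3 were lower in LL/2 (2.02%) and 1 in Renca (7.08%). Of the replication and repair genes, 21 of 49 were lower in BNL (4.71% of all genes) and 1 in Renca (7.08%). Higher were 6 in EMT6 and 10 in KLN205, smaller shares than the 17.2% and 28.3% of all genes. Of the histone genes, 47 of 64 were higher in EMT6 (17.2%) and 45 of 63 in KLN205 (28.3%). Lower were 14 of 64 in BNL (4.71%), 6 of 64 in B16-F10 (0.641%) and 5 of 65 in LL/2 (2.02%). These list counts are from values without rescaling. In EMT6 and KLN205 the protein-coding share of TPM was higher in NT than in Base tumors. In the mean over models, of 49 replication and repair genes, 3 fell (Orc1, Mcm10 and Rad54l) and 2 rose (Pola1 and Rpa1), led by Orc1 (-0.16) and Rpa1 (0.10), and 3 of 66 histone genes tested rose. Cdkn1a (0.25), Cdkn1b (p27, 0.19) and Myc (0.10) rose. In the same mean, skeletal muscle markers (5 of 5, median -1.23), adipocyte markers (4 of 4, median -0.90) and 4 of 6 endothelial, 3 of 7 fibroblast, 2 of 6 macrophage, 2 of 5 neutrophil, 2 of 5 T cell, 1 of 4 epithelial and 1 of 5 melanocyte markers were lower in NT than in Base. No erythroid, hepatocyte or skin epithelium marker was called in this mean by limma (0 also at an unadjusted p under 0.05). The hepatocyte markers are mainly expressed in Hepa 1-6, where their median change was 0.31 with none called. Within single models markers moved in both directions. Their part in the changes of the 47 genes was not tested.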

How the data were processed

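RNA from 107 tumors was purified, depleted of rRNA and sequenced by the authors. Per the submitters' processing notes, bcl2fastq, Trimmomatic 0.36, STAR 2.5.2b and RSEM 1.2.31 were used with mm10/GRCm38. The authors deposited TPM for 50686 genes, and each column sums to about 1000000. TPM keeps no depth, so the depth of each tumor and its counting error are unknown. The protein-coding share of TPM ranged from 27.5% to 66.6%.

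TPM was transformed to log2(TPM + 1) and a gene was tested if its TPM averaged 1 or more over the tumors of the fit. limma 3.58.1 in R 4.3.3 (lmFit, eBayes with a trend) was fitted to each model alone and to 24 groups over all models, where the mean contrast and an F test of 11 contrasts were taken, and the Benjamini-Hochberg method was applied over all genes tested (threshold 0.05). The fits were tested on simulated data. P-values and SEs measure the spread between separate tumors of a group. In the fit over all models they hold none of the spread between models. Figures and summaries used Python 3.11.15.

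The members, roles, lists and markers were chosen with earlier results of these data known. Values per tumor, or the lowest, median and highest of an arm, are given for Mki67, Ccnb1, Mcm5, Ccne1, Pcna and Rrm2, for the 5 lowest adjusted p values of LEN against NT, the 3 lowest F test p values, the largest called change per model and direction, the 3 lowest adjusted p values of NT against Base, and at Base the highest and lowest level and the 2 widest spans. Ccnb2 in RAG, the E2f1 range over all tumors, the models shown for each gene and the printed promoters were chosen after values were seen. Alternatives were the pseudocount, the minimum, 3 rescalings, no trend, a joint spread, the two-group test the study used, a replicate block, and leaving out each tumor or model. Protein-coding genes were taken from GENCODE M21, which has 50376 of the genes.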

Additional observations from a re-analysis of the deposited data

Results flagged for a closer look

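Results are listed here where the change itself differed between models by an F test in limma. No group held more than 3 tumors, so single tumors were not screened as outliers.

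The LEN effect differed between models for 22 of the 47 genes, where 35.3% of all genes tested differed, with the lowest adjusted p in Tpx2 (0.00134 by limma, -0.89 in KLN205 and 0.50 in RAG), Cdc20 (0.00569) and Bub1 (0.00599). The change from Base to NT differed for 29 of the 47 genes, a share no larger than the 66.5% of all genes tested, with the lowest adjusted p in Mcm5 (5.15e-05 by limma, 0.84 in RAG), Bub1b (7.3e-05) and Pcna (9.56e-05).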

How the results depend on the processing

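For LEN against NT over models, the 39 lower calls ranged from 37 to 43 when 1 tumor was left out, from 34 to 43 when a model was left out and from 28 (replicate block) to 44 under other settings. Upper-quartile, median-ratio and protein-coding rescaling gave 44, 42 and 43 lower calls, where 18.3%, 14.1% and 16.2% of all genes were called lower. The shares of all genes called higher were then 13.2%, 16.9% and 14.6%. The higher count of 0 became 1 (E2f1) under the 3 rescalings and without 4T1, B16-F10, KLN205, MBT2, or 4T1 and KLN205 (the last chosen after seeing the data), and 0 to 1 without single tumors. The 22 genes that differed between models became 40, 42 and 34 under upper-quartile, median-ratio and protein-coding rescaling, 35 without 4T1, 8 without BNL, 7 without RAG, 1 without RAG and BNL (chosen after seeing the data) and 13 (without RAG NT replicate 5) to 39 (without 4T1 LEN replicate 2) without single tumors. Within models, 63 lower calls became 96, 102 and 104 under the rescalings in that order and 6 with the two-group test the study used (42 to 67 without single tumors). The 7 higher calls became 2 with a joint spread, 1 with the two-group test, and 3 with no minimum or no trend (4 to 8 without single tumors).

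For NT against Base over models, the 1 lower call became 6, 5 and 9 under the rescalings and 2 without EMT6 or RAG (1 to 1 without single tumors). The 1 higher call became 0 under the 3 rescalings, with no minimum, no trend, and without 4T1, EMT6, KLN205, MBT2, MC38 or RAG, 2 without CT26.WT, and 5 without LL/2 (0 to 2 without single tumors). The 29 genes that differed between models ranged from 27 to 40 without single tumors. Within models, 17 higher calls became 3, 7 and 2 under the rescalings, 30 with a joint spread, 1 with the two-group test, 9 with no minimum and 5 with no trend (9 to 20 without single tumors). The 14 lower calls became 28, 26 and 35 under the rescalings, 1 with the two-group test and 8 with no trend (3 to 15 without single tumors). At Base all 47 genes differed in every fit (47 to 47 without single tumors, 46 of 46 tested at a mean TPM of at least 5).

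With the replicate block, the fit over all models called 28 genes lower with LEN, 0 different between models, 0 higher from Base to NT, and 3 different between models from Base to NT. The lower calls lost with it included the mitosis genes Aurkb and Cdc25c. Outside mitosis they included Gins2, Mcm2, Mcm4, Mcm6, Mcm7, Rrm1, Rrm2 and Tk1. Same-numbered tumors did not deviate together (correlations from -0.076 to 0.076 over 20 pairs of LEN and NT tumors and from -0.14 to 0.10 over 25 pairs of NT and Base tumors), so the numbers were not taken as pairs, and no block was fitted within single models. The cause of these shifts was not tested. The depth of each tumor is unknown, and 3 tumors per group limit every call within a model.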
